A study of Mus musculus with 6 samples.

Results

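RNA levels of serum response factor, its coactivators, the coactivators YAP and TAZ, and 5 of their classical target genes were followed in the soleus of mice that lack Gα13 in muscle. The 10 genes were Srf, Mkl1, Mkl2, Yap1, Wwtr1, Ankrd1, Ctgf, Cyr61, Vcl and Tagln, out of 23152 genes on the array. They were named by symbol for their place in the pathway, with earlier results of these data already known. Mkl1 and Mkl2 (now Mrtfa and Mrtfb) encode the myocardin-related transcription factors (MRTFs), Wwtr1 encodes TAZ, and Ctgf and Cyr61 are now named Ccn2 and Ccn1. The tested mice (MKO) carried Gna13 alleles flanked by loxP sites together with Ckmm-Cre, which expresses Cre recombinase from the muscle creatine kinase promoter. The controls (WT) carried the same floxed alleles without Cre, so that deletion of Gna13 and presence of Cre cannot be told apart. All mice were males aged 18 weeks, killed after a fast of 14 h, with 3 mice per genotype and 1 array (Affymetrix GeneChip Mouse 2.0 ST) per mouse. Because Ckmm-Cre acts in muscle fibres, the vessels, fibroblasts and other cells of the soleus keep Gna13.

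Gα13 is the subunit of a heterotrimeric G protein that activates the small GTPase RhoA, which drives the assembly of actin filaments. Monomeric actin binds MRTFs and holds them out of the nucleus, and filament assembly releases them to join SRF on a DNA element called the CArG box, where they switch on genes of the cytoskeleton and the contractile apparatus. YAP and TAZ are held inactive by the LATS kinases of the Hippo pathway, are set free by RhoA and by mechanical tension, and act with TEAD factors on growth and matrix genes. In skeletal muscle, SRF supports actin gene expression and fibre growth, and YAP has been linked to the control of fibre size.

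Pairs of arrays had Pearson r between 0.978 and 0.987 across genes, which are no independent replicates. MKO replicate 1 stood apart on the first principal component (33.6, with the other 5 arrays between −19.7 and 14.4). Each of the 10 genes is therefore also given without this mouse. Of 7 Gna13 probe sets, which each read a part of the gene, 1 lay lower in every MKO array (3.43, 4.25 and 4.33) than in every WT array (5.48, 6.23 and 6.16, log2 scale). In 3 others every MKO array lay above every WT array, by 0.51 to 0.67 on average, and the deposited table does not say which exon a probe set reads or which was deleted, so the gene as a whole is no check of the deletion. All 11 myofibre markers lay above the median gene (4.41), and the slow myosin Myh7 lay between 10.92 and 10.93 in MKO and between 10.90 and 11.21 in WT.

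Promoters are printed for 4 genes on which the results turn, Vcl and Ankrd1 with the smallest p-values and Srf and Cyr61 as a factor and a target whose intervals include 0. Each stretch is the 250 bases before the RefSeq transcription start on GRCm38.p6, 5′ to 3′ on the gene's strand, with CArG boxes and the TEAD motif core (GGAATG, or CATTCC for the other strand) in capitals.
Srf: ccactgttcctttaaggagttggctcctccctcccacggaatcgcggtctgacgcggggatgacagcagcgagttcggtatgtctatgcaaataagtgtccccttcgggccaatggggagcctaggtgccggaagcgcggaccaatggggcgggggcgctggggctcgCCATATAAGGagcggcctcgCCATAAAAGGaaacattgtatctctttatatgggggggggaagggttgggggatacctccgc
Vcl: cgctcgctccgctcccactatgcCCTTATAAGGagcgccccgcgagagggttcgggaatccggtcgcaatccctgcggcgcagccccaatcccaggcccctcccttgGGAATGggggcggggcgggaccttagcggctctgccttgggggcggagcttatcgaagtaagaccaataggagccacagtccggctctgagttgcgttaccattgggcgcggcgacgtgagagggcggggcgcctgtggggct
Ankrd1: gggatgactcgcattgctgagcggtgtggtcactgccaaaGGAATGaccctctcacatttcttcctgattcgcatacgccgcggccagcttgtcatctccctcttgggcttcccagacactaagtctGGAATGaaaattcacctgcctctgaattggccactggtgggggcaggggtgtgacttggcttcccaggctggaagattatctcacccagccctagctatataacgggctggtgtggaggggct
Cyr61: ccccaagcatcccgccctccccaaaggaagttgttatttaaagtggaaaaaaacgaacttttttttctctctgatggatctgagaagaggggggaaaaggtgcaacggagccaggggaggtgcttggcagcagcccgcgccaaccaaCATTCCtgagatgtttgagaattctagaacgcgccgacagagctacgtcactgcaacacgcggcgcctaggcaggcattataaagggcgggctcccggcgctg
The stretches lie at chr17:46556163-46556412 (minus strand), chr14:20929148-20929397 (plus strand), chr19:36119845-36120094 (minus strand) and chr3:145649986-145650235 (minus strand). The Srf promoter holds 2 CArG boxes, which start 82 and 62 bases before the transcription start, and no TEAD core. The Vcl promoter holds 1 CArG box, 227 bases before the start, and 1 TEAD core, 143 bases before it. The Ankrd1 promoter holds 2 TEAD cores, 210 and 123 bases before the start, and the Cyr61 promoter 1 in the other orientation, 103 bases before the start, with no CArG box in either window. Among all 32851 promoter windows of this length, 1.47% held a CArG box and 12.6% a TEAD core, with both strands searched and no overlap between the motifs in these windows. A match describes letters only, and elements farther from the start are not covered. Of the 10 genes, 8 had an entry in the RefSeq promoter table; Ctgf and Tagln had none.

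No gene of the group passed the test after adjustment for the 23152 genes tested. In limma, 0 of 10 had an adjusted p under 0.05, against 0% of all genes (0 of 23152), and every adjusted p was 0.9997. At an unadjusted p under 0.05, 2 of 10 were lower in MKO (Ankrd1 and Vcl), where 2.41% of all genes were, and 0 of 10 were higher, where 1.92% of all genes were. Log2 fold changes were below 0 in 7 genes and above 0 in 3, with a median of −0.05. Over all genes the median was −0.01, with 53.4% below 0. Over the 11576 genes above the median level it was −0.038, with 61.6% below 0. The local pooled error (LPE) test that the series names was written here after its published description and run on the gene values. It called 0 of the 10 and 35 of all genes. All 10 genes lay above the median gene, so that a filter on dim genes removed none.

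**Figure D1:**
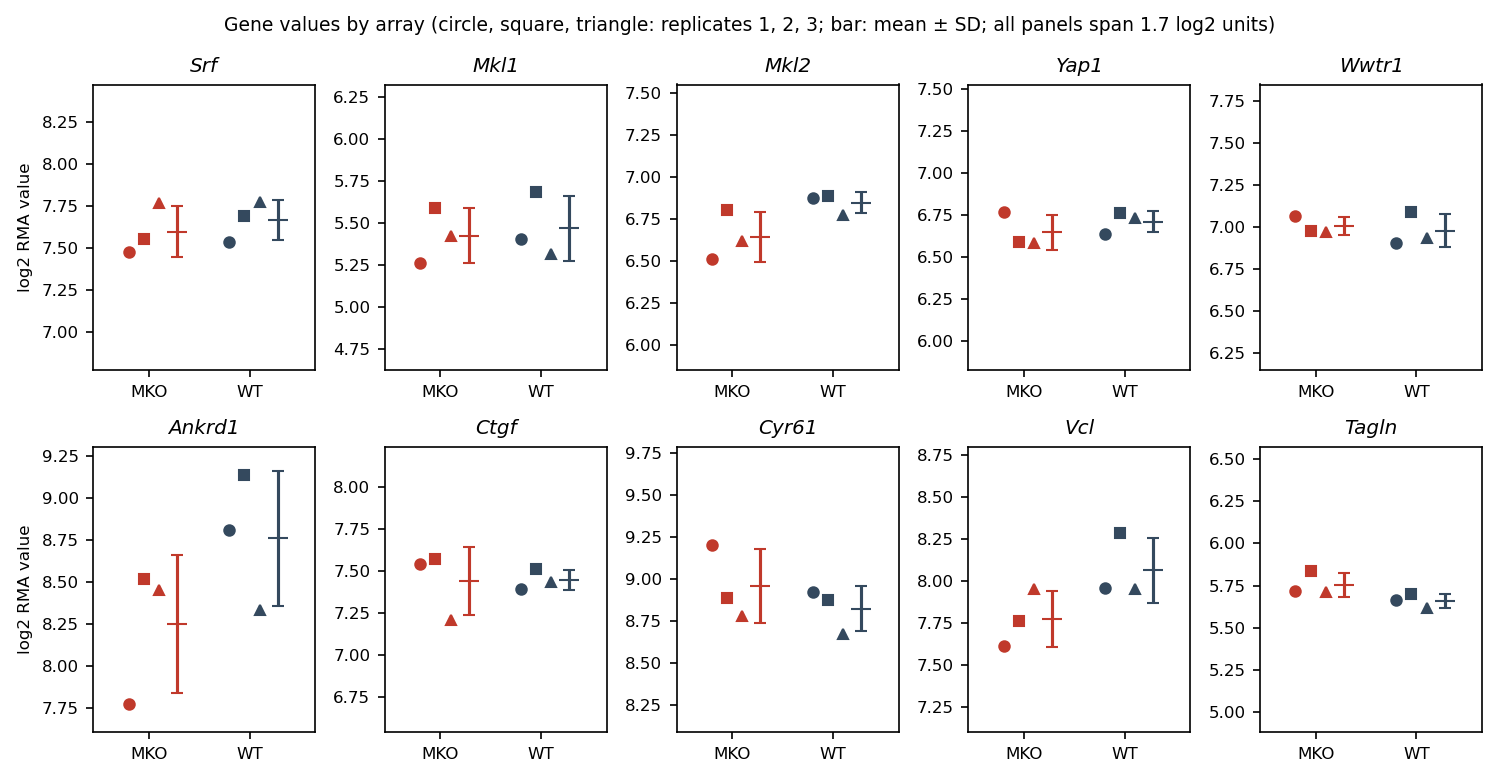
Values of the 10 genes on each array (log2 RMA value; MKO left, WT right; circle, square and triangle are replicates 1, 2 and 3; the bar is the mean ± SD of 3 mice; every panel spans the same log2 range). The groups overlap in 8 of the 10 panels, and Ankrd1 has the widest spread, with MKO replicate 1 at 7.78 and WT replicate 2 at 9.13.

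Srf, the DNA-binding factor itself, stood at 7.47, 7.55 and 7.76 in MKO replicates 1 to 3, against 7.54, 7.69 and 7.77 in WT replicates 1 to 3. The MKO values lay within or just under the WT range, with a log2 fold change of −0.07 (SE 0.11, unadjusted p = 0.552 in limma) and a 95% interval from −0.31 to 0.17. Without MKO replicate 1 the value was −0.0063.

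Of the SRF coactivators, Mkl2 differed more from WT than Mkl1, although neither passed the test and their difference was not tested. Mkl2 stood at 6.51, 6.80 and 6.62 in MKO, against 6.88, 6.89 and 6.77 in WT. MKO replicates 1 and 3 lay below every WT mouse and MKO replicate 2 lay between WT replicates 3 and 1, for a log2 fold change of −0.20 (SE 0.12, interval −0.46 to 0.05, unadjusted p = 0.106 in limma). Without MKO replicate 1 it was −0.14 (unadjusted p = 0.259 in limma). Mkl1 stood at 5.27, 5.59 and 5.42 in MKO, against 5.41, 5.69 and 5.32 in WT. These values interleave, with a log2 fold change of −0.04 (SE 0.15, interval −0.37 to 0.28) that changed sign without MKO replicate 1 (0.0384) or WT replicate 2 (0.066).

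The genes of YAP and TAZ had fold changes near 0 as means of their probe sets. The fold changes were more negative when the median level of the probe sets on each array was used instead. Yap1 stood at 6.77, 6.59 and 6.59 in MKO, against 6.64, 6.76 and 6.73 in WT, a log2 fold change of −0.06 (SE 0.11, interval −0.31 to 0.18). MKO replicate 1 was above and the other two were below all WT mice. The Yap1 value was −0.12 without MKO replicate 1 and −0.30 (unadjusted p = 0.121 in limma) for the median of its probe sets. Wwtr1 stood at 7.07, 6.98 and 6.97 in MKO, against 6.91, 7.09 and 6.94 in WT, a log2 fold change of 0.03 (SE 0.11, interval −0.20 to 0.26). All MKO values of Wwtr1 lay inside the WT range. Its value turned to −0.0017 without MKO replicate 1 and to −0.31 (unadjusted p = 0.0974 in limma) for the median of its probe sets. The differences of single probe sets had medians of 0.13 (Yap1) and −0.04 (Wwtr1), so most probe sets did not fall that far. The activity of MRTFs, YAP and TAZ is set mainly by where the proteins reside in the cell, which RNA levels do not measure.

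Among the targets, Ankrd1 had the largest difference of the 10 genes. It encodes a stretch-responsive ankyrin repeat protein that binds titin and is known as a YAP and TEAD target. Ankrd1 stood at 7.78, 8.52 and 8.45 in MKO, against 8.81, 9.13 and 8.33 in WT, where WT replicate 3 lay below MKO replicates 2 and 3. The mean was 8.25 ± 0.41 in MKO and 8.76 ± 0.40 in WT (SD, n = 3 each), a log2 fold change of −0.51 (SE 0.20, interval −0.95 to −0.07) or a 1.43-fold lower value, with an unadjusted p of 0.0264 and an adjusted p of 0.9997 in limma. The difference depended on single mice, at −0.28 (unadjusted p = 0.135 in limma) without MKO replicate 1 and −0.32 (0.139) without WT replicate 2. Without WT replicate 3 it was −0.72 (unadjusted p = 0.0025, adjusted p = 0.805 in limma). With the median instead of the mean level of its probe sets on each array it was −0.24 (unadjusted p = 0.215 in limma). The differences of its single probe sets had a median of −0.45.

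Vcl encodes vinculin, which ties integrins and talin to actin at the costameres of muscle and is a classical SRF target. Vcl stood at 7.61, 7.76 and 7.95 in MKO, against 7.96, 8.29 and 7.95 in WT. Every MKO mouse lay below every WT mouse, but the highest MKO value minus the lowest WT value was only −0.000537, and 4.99% of all genes had every MKO array below every WT array. The log2 fold change was −0.29 (SE 0.12, interval −0.55 to −0.03, 1.22-fold lower, unadjusted p = 0.0336, adjusted p = 0.9997 in limma). It was −0.21 (unadjusted p = 0.111 in limma) without MKO replicate 1 and −0.18 (0.181) without WT replicate 2. After median centring of the arrays the groups overlapped. The highest MKO value minus the lowest WT value was −0.0207 after quantile normalization and −0.0744 with the median of probe sets.

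Ctgf and Cyr61, widely used YAP readouts that encode secreted matrix-associated proteins, had RNA differences whose intervals include 0. Their contrast with Ankrd1 and Vcl was not tested. Ctgf stood at 7.55, 7.57 and 7.21 in MKO, against 7.39, 7.51 and 7.43 in WT. MKO replicates 1 and 2 were above and MKO replicate 3 was below all WT mice, which left a log2 fold change of −0.0040 (SE 0.12, interval −0.26 to 0.25), or −0.0557 without MKO replicate 1. Cyr61 stood at 9.20, 8.88 and 8.78 in MKO, against 8.92, 8.88 and 8.67 in WT, a log2 fold change of 0.13 (SE 0.11, interval −0.11 to 0.38). Its MKO replicate 1 was the highest of all arrays, and without that mouse the value was 0.0109. Tagln, which encodes the smooth muscle actin-binding protein SM22α and is an SRF and MRTF target, stood at 5.72, 5.84 and 5.71 in MKO, against 5.67, 5.70 and 5.61 in WT. Every MKO mouse lay above every WT mouse, by 0.0123 at the nearest, and 4.26% of all genes showed that order. The log2 fold change of Tagln was 0.10 (SE 0.12, interval −0.17 to 0.37), or 0.11 without MKO replicate 1, and the groups overlapped after median centring and when the median of its probe sets was used.

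**Figure D2:**
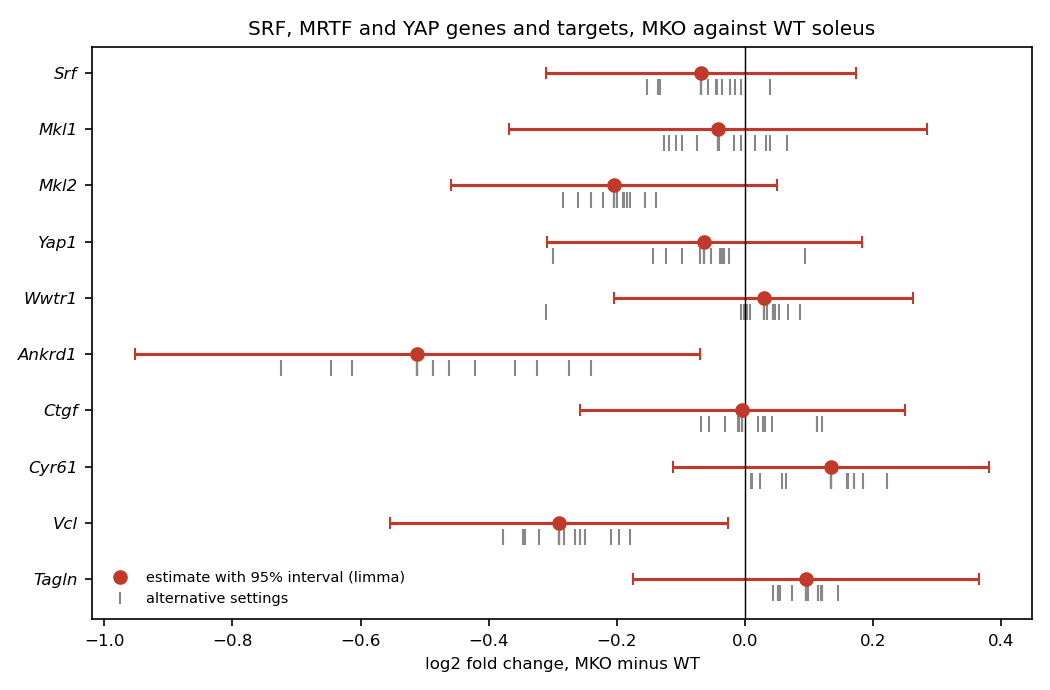
Log2 fold change, MKO minus WT, of the 10 genes (red points with 95% intervals from limma) and the values under the 16 alternative settings (grey ticks below each). The intervals of Ankrd1 and Vcl lie below 0 and the other 8 include it.

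The 126 probe sets of the 10 genes show how even each difference was along its gene. In limma over all 269751 rows of the table, 0 of the 126 passed an adjusted p of 0.05 (0% of all rows), while 9 were lower (2.80% of all rows) and 2 higher (2.20% of all rows) at an unadjusted p under 0.05. The groups did not overlap in 13 of the 126, with MKO below WT in 11 and above it in 2, against 5.05% and 4.81% of all rows. Ankrd1 had a negative difference in 9 of 9 probe sets, between −1.02 (probe set 17364186) and −0.21 (17364185), with MKO replicate 1 the lowest array in 8 of the 9 and WT replicate 2 the highest in 8. Probe sets of one gene share the same RNA sample and are not replicates. Vcl had a negative difference in 21 of 24 probe sets, with a median of −0.28. Its lowest difference, −1.19 in probe set 17297560, had an SE of 0.89, with MKO replicate 2 at 2.70 there, and its highest was 0.14 in 17297571. MKO replicate 1 was the lowest array in 14 Vcl probe sets and WT replicate 2 the highest in 15.

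The other genes differed in how far their probe sets spread. Mkl2 had 17 of 23 probe sets below 0, from −0.89 in the dim 17323015 to 0.30 in 17323019, and every MKO array below every WT array in 4. Cyr61 had 5 of 5 above 0 and the smallest spread of the 10 genes (SD 0.0756 over its probe sets, against 0.228 for Ankrd1 and 0.287 for Vcl), between 0.0237 (17410979) and 0.22 (17410981). Yap1 ranged from −1.80 in 17523892, where MKO read 3.15, 2.44 and 3.45 and WT read 3.12, 6.10 and 5.21, to 0.55 in 17514613. Its 10 probe sets above the median probe set (4.84) had a median of 0.14, with 7 above 0, and its 5 dimmer ones a median of −0.26. Chosen after the values were seen, its brightest probe set, 17523889, stood at 11.27, 11.25 and 10.80 in MKO, against 10.39, 10.91 and 10.41 in WT, a difference of 0.54 (SE 0.17, unadjusted p = 0.0127, adjusted p = 0.977). The gene value of Yap1, −0.06 over all probe sets, was 0.0936 with the bright ones alone. Ctgf had 7 of 9 above 0, up to 0.26 in 17232241, and 1 far below, 17232238, at 5.11, 5.19 and 4.24 in MKO against 6.04, 6.12 and 5.24 in WT (−0.95, SE 0.40). Tagln was mixed, with 17526580 at 0.45 (SE 0.25) and 17526578 at −0.45 (SE 0.23), each with the MKO arrays apart from the WT arrays in opposite directions. Mkl1 ran from −1.18 (17319445) to 0.79 (17319446), both dim, Wwtr1 from −0.38 (17405372) to 0.24 (17405369), and Srf from −0.52 (17345466) to 0.10 (17345474).

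**Figure D3:**
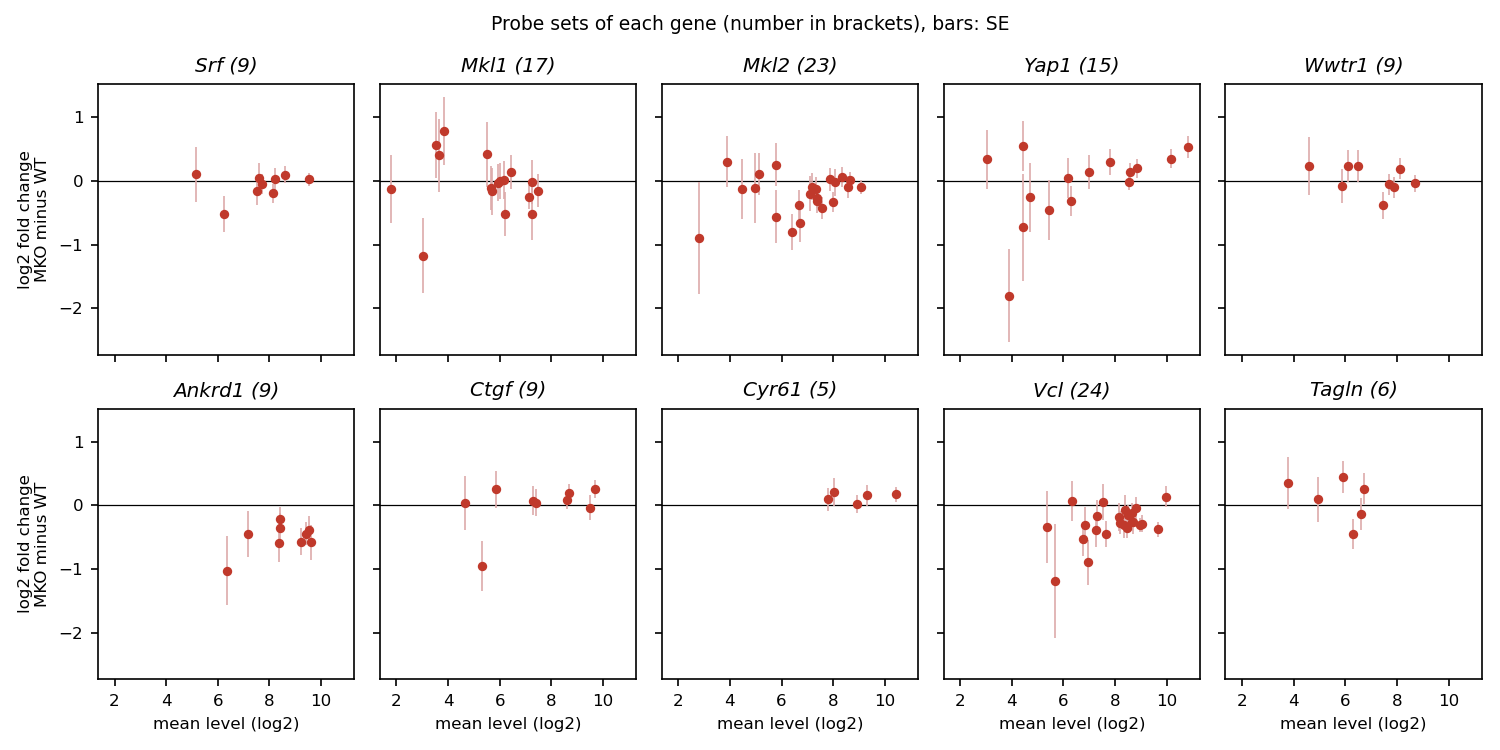
Log2 fold change, MKO minus WT, of each probe set (points, bars are the SE from limma) against its mean level over the 6 arrays, 1 panel per gene. All 9 Ankrd1 points lie below 0 and all 5 Cyr61 points above it, and the Yap1 points lie between −1.80 and 0.55, both at dim probe sets, with the brightest at 0.54.

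Several of these genes are also used by other cells of the muscle, and in a bulk sample fewer cells of a type and less RNA per cell cannot be told apart. Markers of smooth muscle and pericytes, where Tagln is most abundant, had 9 of 12 genes below 0 with a median of −0.08, opposite in sign to Tagln, and summed on the linear scale to 4009 to 4444 in MKO, against 4530 to 4691 in WT. That gap rested on Des, which encodes desmin and is also abundant in muscle fibres (10.80, 10.93 and 10.95 in MKO, against 11.14, 11.11 and 11.11 in WT). Without Des, a choice made after seeing the data, the sums were 2232 to 2486 in MKO and 2315 to 2440 in WT, which overlap. The contractile markers Acta2 and Myh11 differed by −0.02 (SE 0.11) and −0.05 (SE 0.12). Fibroblast and fibro-adipogenic progenitor markers had 9 of 10 below 0 with a median of −0.30 and sums of 2078 to 2835 in MKO, against 2444 to 3119 in WT. Endothelial markers had 10 of 10 below 0 with a median of −0.16 and sums of 1190 to 1457 in MKO, against 1254 to 1668 in WT. Tenocyte markers (7 of 8 below 0) summed to 1232 to 1317 in MKO and 1183 to 1693 in WT, and macrophage markers (8 of 9) to 271 to 314 in MKO and 320 to 379 in WT. The macrophage gap rested on Cd68 (−0.82, SE 0.26), and without it, also chosen after seeing the data, the sums overlap at 233 to 266 in MKO and 243 to 288 in WT. The myofibre markers had 7 of 11 below 0 with a median of −0.03 and sums of 24265 to 26506 in MKO, against 25323 to 26178 in WT. MKO replicate 1, lowest for Ankrd1 and Vcl, was also the lowest array for the fibroblast (−0.46 from the WT mean), endothelial (−0.33), macrophage (−0.27) and smooth muscle (−0.17) lists, while WT replicate 3, the lowest WT array for Ankrd1, was the lowest WT array for the same 4 lists and the lowest of all for tenocytes (−0.33). The part of these cells in the Ankrd1 and Vcl differences was not tested. Satellite cell markers were below 0 in 4 of 6, Schwann cell markers in 1 of 4, adipocyte markers in 3 of 6 and erythroid markers in 2 of 2. Of the marker genes (77 matched by symbol and 1 by synonym), 0 passed the adjusted test in limma. At an unadjusted p under 0.05, 5 were lower, where 2.41% of all genes were. Named after their values were seen, they were Des, the endothelial Cldn5, the fibroblast Pdgfra, the tenocyte Thbs4 and the macrophage Cd68. Cldn5, which encodes a tight junction protein, had the smallest p, at 4.92, 5.05 and 5.07 in MKO against 5.53, 5.98 and 5.72 in WT (−0.73, SE 0.15, unadjusted p = 0.000318, adjusted p = 0.666 in limma).

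**Figure D4:**
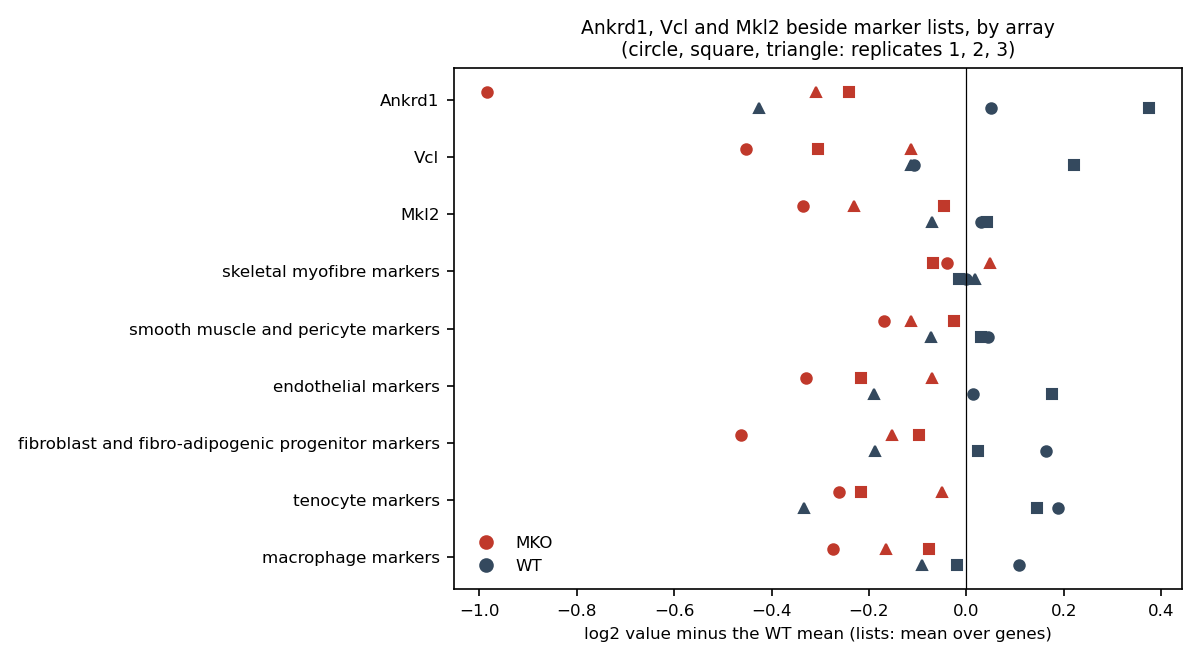
Log2 values of Ankrd1, Vcl and Mkl2 and means of 6 marker lists, each minus its WT mean, by array (MKO red, above; WT dark, below; circle, square and triangle are replicates 1, 2 and 3). MKO replicate 1 is the lowest MKO array for all 3 genes and for 5 of the 6 lists, the exception being the myofibre markers, which stay between −0.07 and 0.05 on every array.

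The wider SRF network was followed in lists of textbook members. Of 14 SRF partners and their regulators, 11 had a negative log2 fold change, with a median of −0.04 and 0 at an unadjusted p under 0.05. Those with the smallest p were Scai, a repressor of MRTF (−0.29, SE 0.16), Abra, a muscle actin-binding protein that promotes MRTF entry into the nucleus (0.09, SE 0.06), and the SRF partner Elk4 (−0.18, SE 0.13). Of 34 cytoskeletal and contractile SRF targets, 23 were below 0 and the median was −0.04 (−0.00305 without MKO replicate 1). Of the 34, 1 had an unadjusted p under 0.05, against 4.33% of all genes in either direction. That gene was Itga5, the fibronectin receptor subunit α5, at 6.27, 6.25 and 6.28 in MKO against 6.75, 6.95 and 6.53 in WT. Its MKO values lay close together and below all WT values, an order that 4.99% of all genes had (−0.48, SE 0.13, unadjusted p = 0.00266, adjusted p = 0.9997 in limma). Next came the myosin light chain kinase Mylk (−0.28, SE 0.14) and the Z-disc protein Pdlim7 (−0.28, SE 0.14). The skeletal actin gene Acta1, picked after its values were seen, stood at 12.43, 12.57 and 12.62 in MKO and 12.60, 12.57 and 12.51 in WT (−0.02, SE 0.06).

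Immediate early genes, which SRF controls in large part with ternary complex factors, all had negative values, 8 of 8, with a median of −0.39, or −0.229 without WT replicate 2. Of them, 4 had an unadjusted p under 0.05, where 2.41% of all genes were lower at that p, and 0 passed the adjusted test in limma. Junb stood at 6.19, 6.02 and 6.06 in MKO, against 6.63, 6.43 and 6.43 in WT (−0.41, SE 0.12). Fos differed by −0.53 (SE 0.19) and Egr1 by −0.73 (SE 0.31), and for each of them WT replicate 3 lay below at least 1 MKO mouse. The lower level of immediate early genes in these arrays was known when the list was written.

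The Hippo side showed values on either side of 0. Of 8 TEAD factors and Vgll cofactors, 6 were below 0 with a median of −0.09. The muscle cofactor Vgll2 stood at 9.17, 9.13 and 9.10 in MKO, against 8.79, 9.09 and 8.92 in WT (0.20, SE 0.09, unadjusted p = 0.0473), while Vgll4, which competes with YAP for TEAD, stood at 5.30, 5.14 and 5.16 in MKO, against 5.44, 5.52 and 5.45 in WT (−0.27, SE 0.13). Vgll1 differed by −0.31 (SE 0.21). In the deposited values the MKO and WT arrays lay apart for Vgll2 and Vgll4, in opposite directions. Of all genes, 4.26% had every MKO array above every WT array, as for Vgll2, and 4.99% below, as for Vgll4. Of 23 Hippo kinases and regulators, 15 were below 0 with a median of −0.04, among them the protocadherin Fat4 (−0.34, SE 0.15, unadjusted p = 0.0454) and the LATS activator Mob1b (−0.25, SE 0.12), while the kinase Lats2 differed by 0.27 (SE 0.15). Of 19 further genes of a YAP and TAZ target signature, 10 were below 0 with a median of −0.04 and 0 at an unadjusted p under 0.05. Tgfb2 (−0.28, SE 0.14), the forkhead gene Foxf2 (−0.32, SE 0.17) and the kinase gene Nuak2 (0.27, SE 0.15) had the smallest p. The medians of the Hippo and the signature list were 0.00844 and 0.000385 after quantile normalization, so neither has a settled direction, and the lists share Lats2, Amotl2 and Ptpn14.

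**Figure D5:**
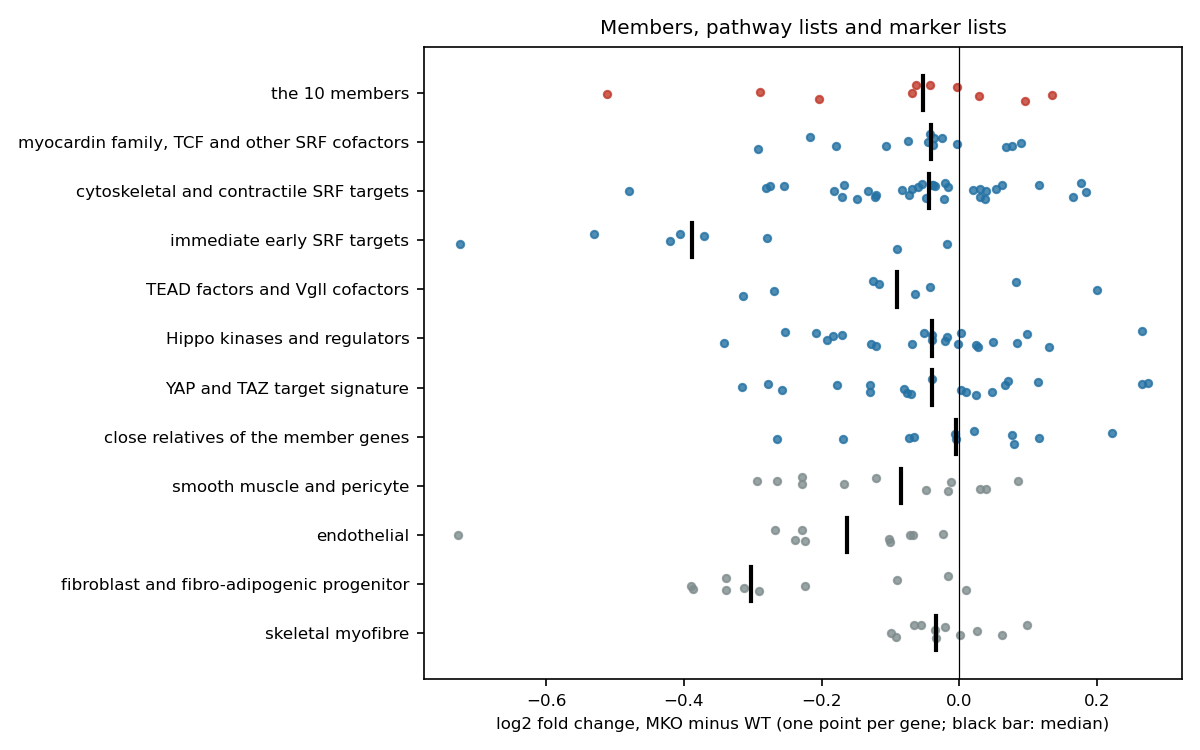
Log2 fold change, MKO minus WT, of every measured gene of the 10-gene group (red), 7 pathway lists (blue) and 4 marker lists (grey), with 1 point per gene and the median as a black bar. The medians lie between −0.09 and −0.01 for the members and pathway lists other than the immediate early list, which is at −0.39.

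Close relatives of the targets did not all go the way of the target. Ankrd2, a stretch-responsive relative of Ankrd1 enriched in slow fibres, stood at 11.25, 11.19 and 11.15 in MKO, against 11.28, 11.52 and 11.30 in WT (−0.17, SE 0.07, unadjusted p = 0.0339). Ankrd23, the third member of that muscle family, stood at 12.19, 12.24 and 12.14 in MKO, against 12.13, 12.02 and 12.07 in WT (0.12, SE 0.05, unadjusted p = 0.0547). The MKO mice thus lay below WT for Ankrd2 (−0.0276 at the nearest values) and above WT for Ankrd23 (0.000668). Of all genes, 4.99% had every MKO array below every WT array and 4.26% had every one above. Tagln2, the widely expressed relative of Tagln, differed by 0.22 (SE 0.12). The list of 11 relatives had 6 below 0 and a median of −0.01, which was 0.0192 after median centring.

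Genes with the most similar profiles were sought among 10337 named genes above the median level, as the smallest mean absolute difference between log2 values centred on each gene's mean over the 6 arrays. For Mkl2 they were Tln1, which encodes talin (0.019), Fam160b2 (0.026) and Rab11fip5 (0.029), where Mkl2 itself deviated from its mean by 0.121 on average. Tln1 stood at 7.15, 7.52 and 7.28 in MKO, against 7.52, 7.55 and 7.42 in WT. For Ankrd1 they were Ly96 (0.063), the cytokine receptor gene Il2rg (0.093) and the collagen gene Col1a1 (0.099), where Ankrd1 deviated by 0.317. Col1a1, one of the fibroblast markers, stood at 8.48, 9.07 and 8.95 in MKO, against 9.23, 9.41 and 8.80 in WT. The 6 arrays have the same order as for Ankrd1, but Col1a1 was picked for its likeness, so this order is no separate result.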

How the data were processed

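Total RNA of the soleus was isolated with TRIzol and hybridised to whole-transcript arrays, per the labels' protocols. The authors deposited log2 values from RMA in Affymetrix Expression Console, per the submitters' processing notes. The sources used here give no versions, genome build or annotation release. Although the design text speaks of gene level, the 269751 rows are probe sets within genes. Rows were named through the platform annotation of the array: 233753 had exactly 1 symbol and were used, 5106 had several and 30892 none. A gene's value is the mean of its probe sets per array, and the alternative called median of probe sets takes their median level per array.

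MKO minus WT was fitted with limma 3.58.1 (lmFit, eBayes with variance trend) in R 4.3.3. Two-sided p-values were adjusted by Benjamini-Hochberg over the 23152 genes, or over every row for probe sets, with a threshold of 0.05. The fit was tested on simulated data of 23152 genes. The fit recovered 67 of 100 changes of 1 on the log2 scale and 100 of 100 changes of 2. Smaller changes, such as the Ankrd1 difference of −0.51, were not simulated. These rates therefore do not tell how often differences of that size would be found on these arrays. Tables and figures were made with Python 3.11.15. Promoters and gene names came from RefSeq (GRCm38.p6). Precision is limited by there being 3 arrays per group, which the labels call biological replicates.

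The members and lists were chosen with earlier results of these data known. A symbol match was found for 116 of 118 pathway entries and 77 of 85 marker entries, a synonym for 1 of each, and none for 1 pathway and 6 marker entries; 1 marker entry was a repeat. Named were all members, 3 genes per pathway list by smallest p, the extreme probe sets of each member, markers that share a member's cell type, and the 3 nearest profiles of the regulator and the target with the smallest p. Same-numbered MKO and WT arrays correlated by −0.088, 0.091 and −0.236 in their deviations from group means, and different-numbered ones by −0.226 to 0.296. With 3 arrays per group these values cannot settle whether the numbers pair the mice.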

Additional observations from a re-analysis of the deposited data

How the results depend on the processing

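Over 16 alternatives and 10 genes, 144 of 160 log2 fold changes kept the direction of the main value, and 0 members passed an adjusted p of 0.05 in any of them. Ankrd1, Vcl, Mkl2, Cyr61 and Tagln kept their sign in all 16. These counts include alternatives that leave every fold change as it was and alter only the test. They are the fits without a variance trend, with robust moderation, with a replicate block and over genes above the median level. For Srf, Ankrd1, Cyr61 and Vcl every probe set was bright, so the mean of bright probe sets also changed nothing. Ankrd1 had an unadjusted p under 0.05 in 9 of the 16 and Vcl in 10. The number of members lower at that p was 0 without a variance trend and after median centring, 1 with robust moderation, with the median of probe sets and with the LPE test, and 0 to 2 with 1 array left out, being 0 without MKO replicate 1 and without WT replicate 2. Signs turned for Srf at 0.039 for the median of probe sets, Mkl1 at 0.0328 with array weights and 0.0162 by the LPE test, Yap1 at 0.0936 for bright probe sets, Wwtr1 at −0.31 for the median of probe sets, and Ctgf at 0.0423 with array weights, 0.0315 after quantile normalization, 0.0206 after median centring, 0.121 for the median of probe sets and 0.112 by the LPE test. With 1 array left out, the ranges were −0.126 to 0.066 for Mkl1, −0.00593 to 0.0853 for Wwtr1 and −0.0684 to 0.112 for Ctgf. The cause of these changes was not tested. Over all genes, limma called 0, array weights 1 (Rrad) and the LPE test 35, and 0 to 1 were called with 1 array left out (an immunoglobulin kappa variable gene without WT replicate 1, Rrad without WT replicate 3). At an unadjusted p under 0.05 it was 1002 genes, 1805 with array weights, 1561 without MKO replicate 3 and 500 of the 11576 genes above the median level. Of the list genes, the LPE test called 2, Egr1 and Cd68. Median centring moved the share of all genes below 0 to 47.0%, against 53.4% in the deposited values. With the replicate number as a replicate block, 0 genes were called, 873 had an unadjusted p under 0.05, and Ankrd1 and Vcl had unadjusted p-values of 0.00925 and 0.0395. The block changed no call.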
